A study of Homo sapiens with 42 samples.

Results

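Human satellite 1 is the AT-rich family of classical satellite DNA. It consists of HSat1A, a short tandem repeat, and HSat1B, a satellite with a longer and more complex unit. Topoisomerase 2 (TOP2) cuts both strands of one DNA duplex, passes another through the gap and reseals it. Etoposide and mitoxantrone, both used against leukaemia, are TOP2 poisons: they hold the enzyme on the cut DNA, covalently joined to its 5′ ends. TOP2A is the form of dividing cells and TOP2B is also present in cells that do not divide.

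The regions described here are the rows of the deposited count table named for HSat1A or HSat1B and for a numbered chromosome. They were chosen by these names alone and number 42 of 2523 named centromeric and satellite regions. There are 24 HSat1A regions, on chromosomes 3, 4, 8, 13, 14, 15, 21 and 22, and 18 HSat1B regions, on chromosomes 10, 13, 14, 15, 16, 21 and 22. A further 46 HSat1B rows lie outside the numbered chromosomes and were left out.

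The DNA came from KG-1 cells, an established line of human acute myelogenous leukaemia. Transcripts were not measured, so the line was not checked against markers. Cells spent 1 h in 100 µM etoposide, in 20 µM mitoxantrone or in vehicle, labelled no drug. Sheared DNA that had not been fixed with formaldehyde was then pulled down with a TOP2A or a TOP2B antibody, or was kept as input. All libraries share the later steps: treatment with TDP2, an enzyme that frees 5′ ends blocked by TOP2, digestion with BsmAI, heating, and Illumina TruSeq preparation. Drug, antibody and series define 12 groups and 42 libraries. The etoposide series has 4 replicas and the mitoxantrone series has 3, and each replica holds 6 libraries, TOP2A, TOP2B and input with the drug and the same 3 without it. Each replica was sequenced within 1 of 5 order numbers, with reads of 38 bp (etoposide replica 1), 100 bp (mitoxantrone replica 1) or 50 bp (the other 5 replicas). The labels do not say whether replicas were separate cultures, so their spread may be technical.

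Reads counted in named regions ranged from 23900 to 3207823 per library, with a median of 351072. Of all reads, 21.1% to 68.3% per library had been set aside for low mapping quality, and the satellite content of those reads is not known here. Shares below are therefore shares of the named-region reads that passed. Intervals are 95% intervals for counting error only, Wilson for a share and exact binomial for a ratio of 2 shares. They do not cover the spread between replicas.

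HSat1A was read mostly on a few chromosomes. Over all 42 libraries it had 12598 reads, of which chromosome 13 held 28.0%, chromosome 4 held 18.5%, chromosome 21 held 13.1% and chromosome 15 held 10.3%. The remaining chromosomes were 3 with 9.95%, 8 with 7.83%, 14 with 7.78% and 22 with 4.50%. One region, hsat1A_13_1 on chromosome 13, had 2656 reads, 21.1% of the family, and was read in all 42 libraries. The next 5 were hsat1A_15_1 with 1205 reads, hsat1A_8_1 with 986, hsat1A_3_2 with 952, hsat1A_4_2 with 948 and hsat1A_4_1 with 866. These 6 together held 60.4% of the HSat1A reads. At the other end, 2 regions had 1 or 2 reads in all and 1 region, hsat1A_15_2, had 0. That last region is named after its value was seen. The 0 allows up to 3 reads, which in the deepest library is 9.35e-05% of region reads.

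HSat1B was sparser, with 2365 reads over the same libraries. Chromosome 13 held 50.1% of them, chromosome 22 held 16.1%, chromosome 14 held 15.6%, chromosome 15 held 9.51% and chromosome 21 held 8.63%. The leading regions were hsat1B_13_2 with 475 reads and hsat1B_13_1 with 458, followed by hsat1B_14_2 with 246 and hsat1B_15_1 with 225. Outside the acrocentric chromosomes there was almost nothing: hsat1B_16_2 had 2 reads, and hsat1B_10_1 and the other chromosome 16 region had 1 each. Region lengths are not in the table, so reads cannot be turned into a level per length. The order of regions is an order of reads, not of density.

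**Figure D1:**
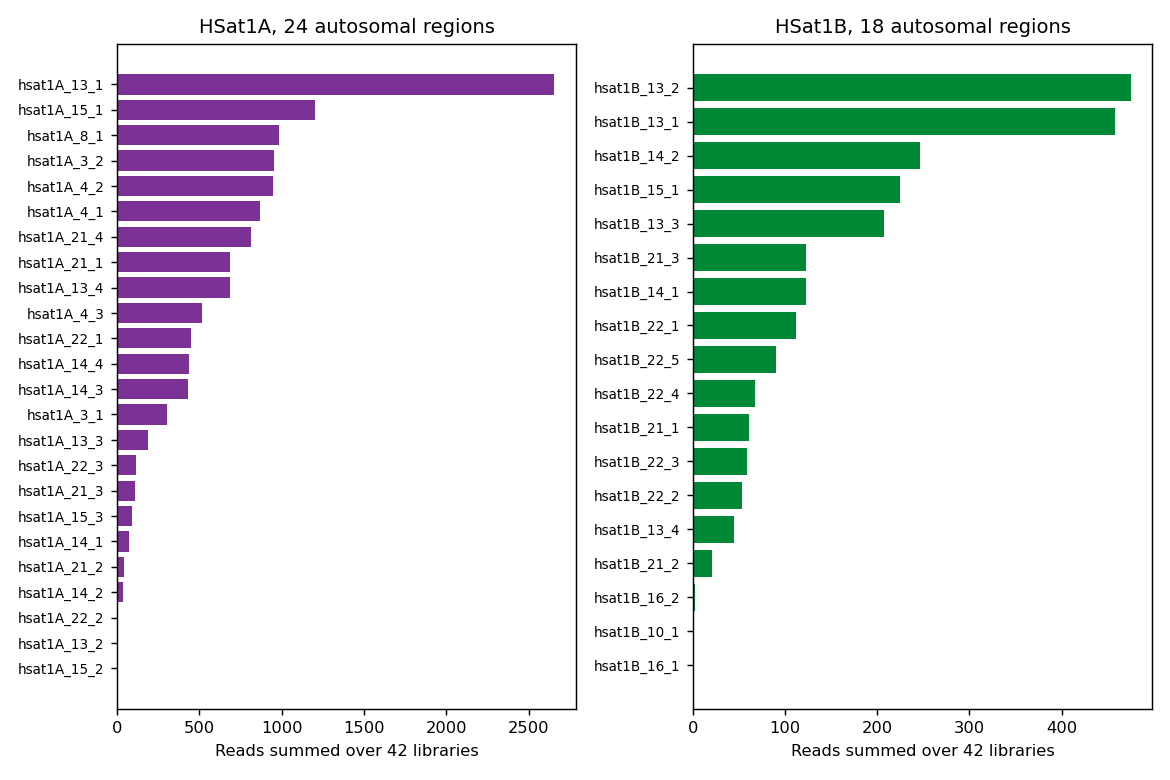
Reads of each autosomal region, summed over 42 libraries, for HSat1A (left) and HSat1B (right). Bars run along a linear axis of reads that starts at 0. In HSat1A, hsat1A_13_1 with 2656 reads stands far above the next region with 1205, whereas in HSat1B the leading pair are close, at 475 and 458 reads.

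Per library, HSat1A had 9 to 1111 reads and HSat1B had 13 to 231. As a share of region reads HSat1A ran from 0.00156% to 1.61%, with a median of 0.0594%. HSat1B ran from 0.00210% to 0.364%, with a median of 0.00790%. The highest HSat1A share was thus 1030 times the lowest, and the highest HSat1B share was 174 times the lowest. For the autosomal regions of HSat2 and HSat3, the other classical satellites, these ratios were 54.1 and 37.1.

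Most of this range lay between replicas. Replica accounted for 71.2% of the variance of the log2 HSat1A share and 68.1% for HSat1B. The 3 kinds of library (TOP2A, TOP2B and input) accounted for 4.88% in HSat1A and 5.62% in HSat1B, against 0.285% in HSat2 and 0.220% in HSat3. A factor with more levels takes up more variance by chance, and replica has 7 levels. None of these parts of the variance was tested against what random labels would give. Pooled over its 6 libraries, etoposide replica 1, the one with 38 bp reads, had 0.00472% of region reads in HSat1A. Etoposide replica 3 had 0.341%. For HSat1B the same replicas had 0.00422% and 0.0919%. Read length and order number are fixed within a replica. Neither can be told apart from replica in the 38 bp and 100 bp replicas. Order number also cannot in etoposide replica 2 and mitoxantrone replica 3, each alone in its order. Etoposide replicas 3 and 4 and mitoxantrone replica 2 share an order.

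Depth differed within replicas as well. The shallowest library of its replica had the highest HSat1A share in 4 of 7 replicas and the highest HSat1B share in 5 of 7, and the deepest library had the lowest share in 2 of 7 for each family. In etoposide replica 3 transition reads, those of the non-satellite stretches beside the centromeres, differed 8.04-fold between libraries. The HSat1A reads of that replica differed 3.50-fold, the HSat1B reads 2.88-fold, the HSat2 reads 2.43-fold and the HSat3 reads 2.41-fold. The part of depth in the differences below was not tested beyond the sums without the 6 libraries that had under 100000 region reads.

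**Figure D2:**
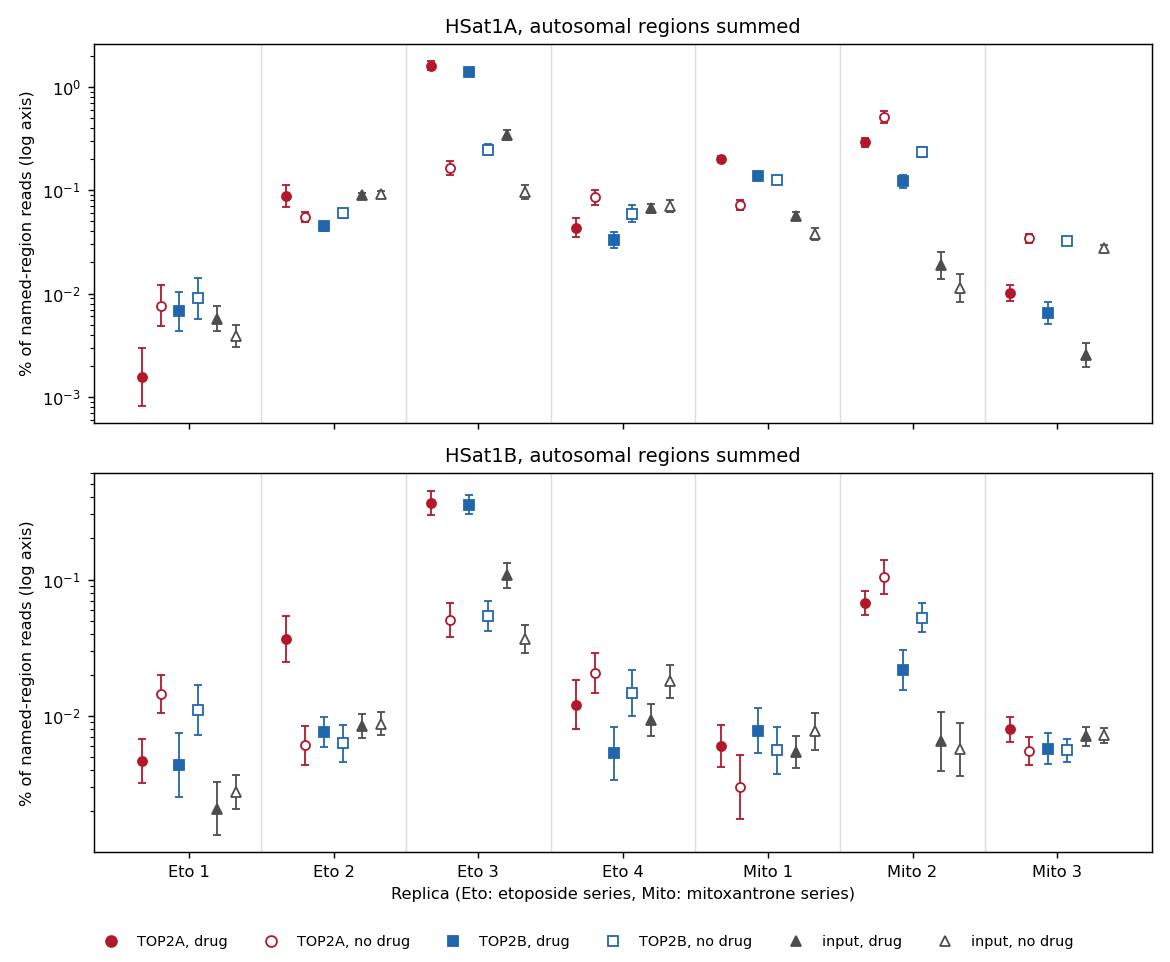
Share of named-region reads in HSat1A (top) and HSat1B (bottom) in each of 42 libraries, on log axes, with 95% Wilson intervals. Within each of 7 replicas the libraries run TOP2A, TOP2B and input, filled with drug and open without. Replicas separate more than kinds of library do: in HSat1A all libraries of etoposide replica 1 lie at or below 0.00905% and all of etoposide replica 3 at or above 0.0963%.

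HSat1A and HSat1B did not keep a fixed ratio. The number of HSat1A reads per HSat1B read was between 0.333 and 33.5, with a median of 4.23. It was 0.333 to 2.74 in etoposide replica 1 and 4.90 to 33.5 in mitoxantrone replica 1. In mitoxantrone replica 3 it ran from 0.36 to 6.14 within 1 replica.

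Under mitoxantrone HSat1A took a larger share of both pulldowns than of input in every replica. It had 1005, 420 and 110 reads in the TOP2A pulldowns of replicas 1, 2 and 3, against 538, 43 and 54 reads in the matching inputs. As shares these were 0.201%, 0.291% and 0.0101% with TOP2A, against 0.0563%, 0.0187% and 0.00256% in input. The groups overlapped, since replica 3 was low in both, but within every replica the pulldown was the higher. The ratios were 3.57 (3.21 to 3.97), 15.5 (11.3 to 21.8) and 3.94 (2.82 to 5.57). The mean log2 ratio was 2.58 (SD 1.18, n = 3 replicas), which is 5.99-fold.

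TOP2B pulldowns under mitoxantrone were also above input, by less. They held 479, 184 and 63 HSat1A reads, or 0.139%, 0.122% and 0.00647% of region reads, and are set against the same inputs. The ratios to input were 2.47 (2.18 to 2.79), 6.50 (4.64 to 9.29) and 2.52 (1.73 to 3.70), with a mean log2 of 1.77 (SD 0.79). TOP2A over TOP2B was 1.45 (1.30 to 1.62), 2.39 (2.00 to 2.86) and 1.56 (1.14 to 2.16), with a mean log2 of 0.81 (SD 0.39). All 9 of these intervals lay above 1. Without replica 2, the mean log2 ratio was 1.90 for TOP2A over input, 1.32 for TOP2B over input and 0.59 for TOP2A over TOP2B.

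For HSat1B the TOP2A share stood clear of input in 1 replica. Under mitoxantrone the TOP2A pulldowns had 30, 97 and 87 HSat1B reads, against 52, 15 and 150 in input. The ratios of shares were 1.10 (0.679 to 1.76), 10.3 (5.94 to 19.1) and 1.12 (0.852 to 1.47), so that only the interval of replica 2 lay above 1. The mean log2 ratio was 1.21 (SD 1.82) with all 3 replicas and 0.16 without replica 2. With TOP2B the ratios to input were 1.44, 3.34 and 0.808. The log2 ratio of TOP2A to input was larger for HSat1A than for HSat1B in 3 of 3 replicas, by 1.37 on average (SD 0.65). For TOP2B it was larger in 3 of 3 by 1.12 (SD 0.45). In replica 2 the TOP2A intervals of HSat1A and HSat1B overlapped. Under etoposide the same difference for TOP2A averaged -1.41 (SD 1.49), larger for HSat1A in 1 of 4 replicas. Without drug it averaged 0.42 (SD 1.16), larger in 5 of 7.

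The other classical satellites differed between replicas in the same comparison. TOP2A over input under mitoxantrone had a mean log2 of 0.60 (SD 0.87) for HSat2, higher in 2 of 3 replicas. For HSat3 it was 0.67 (SD 1.46), higher in 1 of 3.

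The difference under mitoxantrone had the same direction on all HSat1A chromosomes. Summed by chromosome, HSat1A was higher with TOP2A than in input in 3 of 3 replicas on each of its 8 chromosomes. The mean log2 ratios ran from 1.83 on chromosome 3 to 3.48 on chromosome 22. With TOP2B they ran from 1.14 on chromosome 3 to 2.37 on chromosome 22, again higher in 3 of 3 replicas on each. The chromosomes share a repeat and a library, so these counts are not independent. Some of the ratios rest on few reads. Chromosome 8 has 1 HSat1A region, hsat1A_8_1, which in replica 3 had 1 read with TOP2B and 1 in input. Only library size made the pulldown the higher there. Chromosome 22 had the fewest HSat1A reads, 567 over all libraries. Its leading region, hsat1A_22_1, had few input reads, as given below.

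Tested one by one in the main edgeR fit, no region was called. That fit has no term for replica, so differences between replicas stay in its error. Its 0 calls therefore do not show that no region differs. With the replicate block and quality weights hsat1A_22_1 was called, as given below. In edgeR's quasi-likelihood test over the 6 groups of the mitoxantrone series, TOP2A against input under mitoxantrone had 0 of 1416 tested regions with a Benjamini-Hochberg adjusted p under 0.05 (0% called). There were 3 with an unadjusted p under 0.05, and DESeq2 gave 0 called and 9 with an unadjusted p under 0.05. The 3 were all HSat1A regions and held ranks 1, 2 and 3. Of the 24 HSat1A regions 16 passed the filter on low counts and all 16 had positive log2 changes, with a median of 2.58, against 0.02 over all regions tested. Of the 18 HSat1B regions 5 passed and all 5 were positive, with a median of 2.06. A region that passes only where it is high had to differ, so these counts describe the tested regions alone. HSat1A made up 16 of the 1416 regions ranked. It held 10 of the first 20 ranks in this comparison and 4 of the first 20 for TOP2B against input. It held 1 of the first 20 for TOP2A against TOP2B. The HSat1A regions share a repeat and the same libraries, so their ranks are not independent, and the ranks were not tested as a set.

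The region with rank 1 was hsat1A_22_1 on chromosome 22. It had 53, 22 and 6 reads in the TOP2A pulldowns under mitoxantrone and 11, 15 and 4 in the TOP2B pulldowns, against 18, 0 and 1 in input. Input was low in replicas 2 and 3, and per region read both pulldowns were above input in every replica. The log2 change of TOP2A over input was 3.63 (SE 1.58, edgeR adjusted p = 0.9997). With the replicate block it was 3.13 (SE 0.83, adjusted p = 0.999). With limma's voom, quality weights and the replicate block it was 4.70 (SE 0.74, adjusted p = 0.0211), the only member called in any comparison and setting, where 0.0706% of regions were called.

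Ranks 2 and 3 were hsat1A_8_1 and hsat1A_13_1. For hsat1A_8_1 the reads were 55, 34 and 10 with TOP2A under mitoxantrone and 34, 15 and 1 with TOP2B, against 25, 2 and 1 in input, and the log2 change of TOP2A over input was 3.33 (SE 1.52). For hsat1A_13_1 they were 266, 116 and 32 with TOP2A and 101, 41 and 15 with TOP2B, against 129, 7 and 12 in input. Its log2 change was 3.01 (SE 1.40). The adjusted p of both was 0.9997 in edgeR. Among HSat1B regions the lowest p belonged to hsat1B_15_1, with 5, 19 and 8 reads with TOP2A, against 5, 1 and 15 in input, and a log2 change of 2.98 (SE 1.76, edgeR adjusted p = 0.9997). Summed over chromosome 15, where it is the only HSat1B region, its log2 ratio within replicas was 0.93, 4.37 and 0.09.

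**Figure D3:**
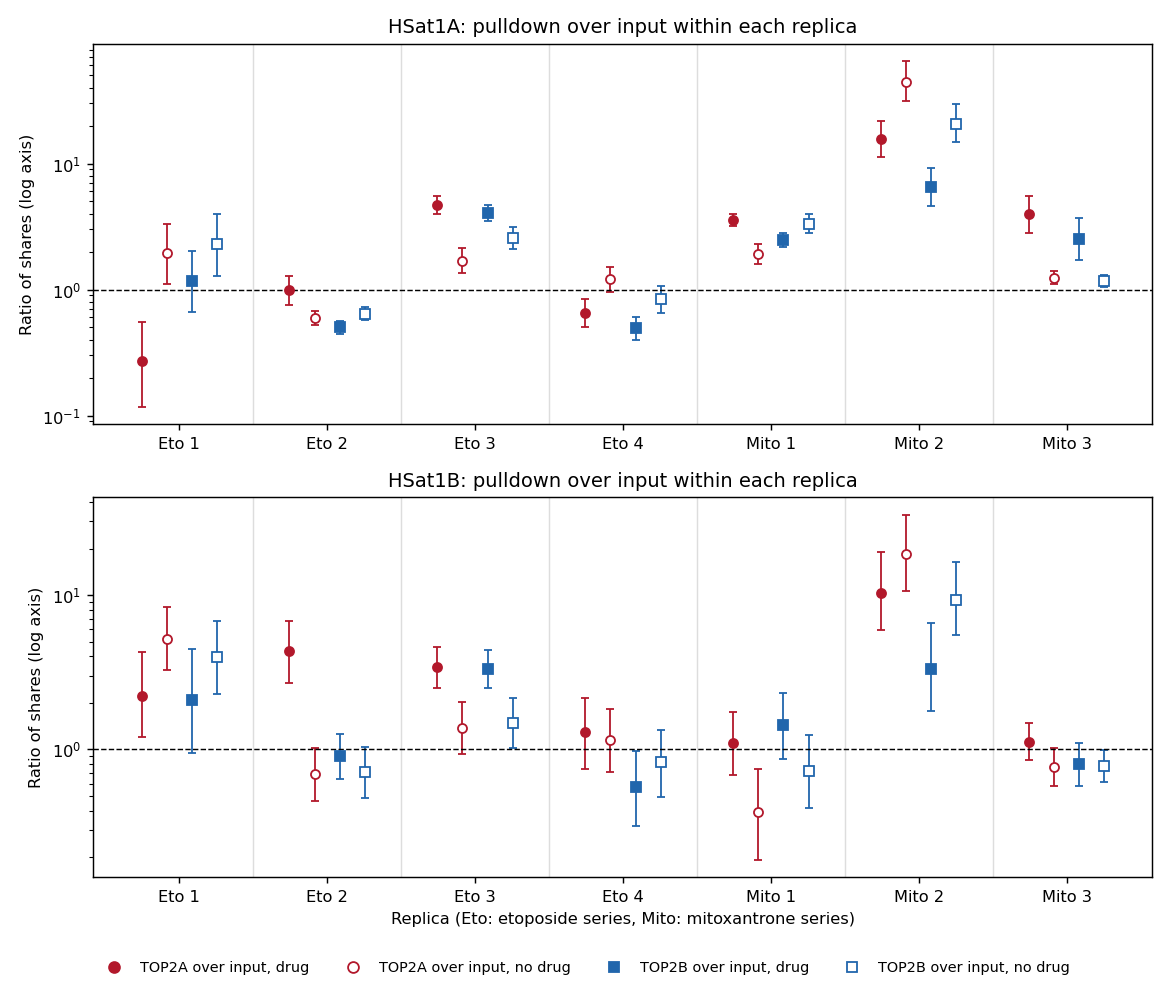
Ratio of pulldown share to input share within each of 7 replicas, on log axes, for HSat1A (top) and HSat1B (bottom), TOP2A in red circles and TOP2B in blue squares, filled with drug and open without. Bars are 95% exact binomial intervals and the dashed line marks 1. In HSat1A all 6 mitoxantrone-treated points of the mitoxantrone series lie between 2.47 and 15.5. The open points of that series also lie above 1, and in the etoposide series the points fall on both sides of 1.

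Without drug HSat1A was also above input in every replica of the mitoxantrone series, with TOP2A and with TOP2B. In replica 2 of that series the TOP2A ratio was higher without drug, 44.7 against 15.5 with mitoxantrone. The mitoxantrone change in TOP2A minus that in input averaged 0.34 on the log2 scale (SD 1.66), and in TOP2B -0.33 (SD 1.39). In the etoposide series the untreated ratios lay on both sides of 1. Untreated TOP2A pulldowns had 19, 323, 155 and 132 HSat1A reads in etoposide replicas 1 to 4 and 312, 224 and 430 in mitoxantrone replicas 1 to 3, against 62, 1111, 173 and 201, and 196, 38 and 882, in input. The ratios of shares in the etoposide series were 1.96, 0.593, 1.69 and 1.20, and in the mitoxantrone series 1.92, 44.7 and 1.24. The share was higher with TOP2A in 6 of 7 replicas, and 5 of 7 intervals lay above 1. The mean log2 ratio was 1.14 (SD 2.00, n = 7), and 0.42 without mitoxantrone replica 2, whose TOP2A library had 43988 region reads against 333498 in input.

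Untreated TOP2B pulldowns gave ratios to input of 2.31, 0.645, 2.57 and 0.836 in the etoposide series and 3.33, 20.6 and 1.16 in the mitoxantrone series. The mean log2 ratio was 1.14 (SD 1.67, 5 of 7 higher), and 0.61 without mitoxantrone replica 2. The untreated inputs are shared by both comparisons. TOP2A over TOP2B without drug averaged -0.0025 on the log2 scale (SD 0.66), higher in 3 of 7 replicas. HSat1B averaged 0.72 (SD 1.91, 4 of 7 higher) for TOP2A over input and 0.60 (SD 1.45, 3 of 7 higher) for TOP2B over input. Without mitoxantrone replica 2 these were 0.14 and 0.17. HSat2 and HSat3 means lay between -0.05 and 0.07 in both untreated comparisons with input. In edgeR no region was called in any of the 3 untreated comparisons (0% of 1372), with 29, 10 and 1 at an unadjusted p under 0.05. Of the HSat1A regions 19 of 24, and of the HSat1B regions 13 of 18, were tested there. With the replicate block edgeR called 0.0729% of regions for TOP2B against input. With voom, quality weights and that block 0.802% were called for TOP2A against input and 0.146% for TOP2B against input. No member was among them.

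Under etoposide the HSat1A ratios to input lay on both sides of 1. The TOP2A pulldowns had 9, 63, 384 and 79 reads, or 0.00156%, 0.0887%, 1.61% and 0.0436%, against 52, 1014, 265 and 384 reads, or 0.00574%, 0.0892%, 0.342% and 0.0668%, in input. The ratios were 0.272 (0.118 to 0.557), 0.994 (0.758 to 1.28), 4.69 (4.00 to 5.51) and 0.653 (0.506 to 0.834). The mean log2 ratio was -0.05 (SD 1.70), and -0.81 without replica 3. TOP2B gave 1.18, 0.501, 4.06 and 0.491, with a mean of 0.06 (SD 1.43), and -0.59 without replica 3. In replica 3 the TOP2A and TOP2B libraries had 23900 and 39003 region reads, against 77373 in input.

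For HSat1B under etoposide the TOP2A ratios to input were all above 1. TOP2A pulldowns had 27, 26, 87 and 22 HSat1B reads, against 19, 96, 83 and 54 in input. The ratios of shares were 2.23 (1.20 to 4.25), 4.33 (2.7 to 6.74), 3.39 (2.48 to 4.64) and 1.29 (0.750 to 2.16). The share was higher with TOP2A in 4 of 4 replicas, with a mean log2 ratio of 1.36 (SD 0.76), and 3 of 4 intervals lay above 1. Against TOP2B the ratios were 1.07 (0.532 to 2.25), 4.80 (2.90 to 7.74), 1.03 (0.777 to 1.36) and 2.28 (1.18 to 4.45), and 2 of these 4 intervals held 1. Their mean log2 was 0.89 (SD 1.07), and 0.43 without replica 2, whose TOP2A library had 26 HSat1B reads. The TOP2B mean over input was 0.47 (SD 1.14). The TOP2A libraries of replicas 2 and 3 had 71055 and 23900 region reads. Without libraries under 100000 region reads the TOP2A mean over input was 0.77, over replicas 1 and 4. HSat2 and HSat3 had means of -1.30 and -1.25 in this comparison, each higher in 1 of 4 replicas. Without drug the HSat1B shares of etoposide replicas 1 to 4 were 0.0145%, 0.00611%, 0.0505% and 0.0207% with TOP2A. In input they were 0.00278%, 0.00881%, 0.0367% and 0.0180%, so TOP2A was the higher without drug too, except in replica 2. The etoposide change in TOP2A minus that in input averaged 0.72 on the log2 scale (SD 1.65), higher in 3 of 4 replicas.

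Each drug was then compared with no drug within one kind of library, and the replicas disagreed in direction for both families. With etoposide, HSat1A had 9, 63, 384 and 79 reads in TOP2A pulldowns, against 19, 323, 155 and 132 without drug. The ratios of shares were 0.203 (0.0811 to 0.472), 1.62 (1.21 to 2.12), 9.85 (8.15 to 11.9) and 0.511 (0.382 to 0.681). Replicas 2 and 3 were higher with etoposide and replicas 1 and 4 lower, and none of these 4 intervals held 1. The mean log2 ratio was 0.19 (SD 2.40), and -0.84 without replica 3. In TOP2B pulldowns the ratios were 0.746, 0.750, 5.62 and 0.555, and the mean was 0.20 (SD 1.54), or -0.56 without replica 3. In input they were 1.47, 0.966, 3.56 and 0.944, with a mean of 0.56 (SD 0.89), or 0.14 without replica 3.

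HSat1B was also higher with etoposide in replica 3. Its ratios of etoposide to no drug there were 7.21 (5.01 to 10.5) in TOP2A, 6.50 (4.76 to 8.98) in TOP2B and 2.92 (2.09 to 4.10) in input. In replica 4 they were 0.587, 0.36 and 0.523, and in replica 1 they were 0.322, 0.397 and 0.755. In replica 2 they were 5.99 (3.47 to 10.2), 1.21 and 0.958, where the TOP2A ratio set 26 reads of 71055 with etoposide against 36 of 589193 without. The means over 4 replicas were 0.76 (SD 2.29) in TOP2A, 0.05 (SD 1.93) in TOP2B and 0.04 (SD 1.07) in input. In each of these 6 etoposide comparisons the SD between replicas was larger than the mean.

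With mitoxantrone, HSat1A had 1005, 420 and 110 reads in TOP2A pulldowns, against 312, 224 and 430 without drug. The ratios of shares were 2.77 (2.44 to 3.16), 0.571 (0.485 to 0.675) and 0.295 (0.237 to 0.365). In TOP2B they were 1.10 (0.973 to 1.25), 0.518 (0.429 to 0.625) and 0.202 (0.153 to 0.262). In input they were 1.49 (1.26 to 1.76), 1.64 (1.04 to 2.61) and 0.0932 (0.0694 to 0.123). The mean log2 ratios were -0.36 (SD 1.66), -1.03 (SD 1.22) and -0.71 (SD 2.34), for TOP2A, TOP2B and input in that order. HSat1B means were 0.28 (SD 0.83), -0.25 (SD 0.90) and -0.11 (SD 0.37).

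In mitoxantrone replica 3 the ratios of HSat1A and HSat1B differed. HSat1A had 54 reads of 2108202 in the mitoxantrone input, against 882 of 3207823 in the input without drug. HSat1B had 150 and 231 reads in those libraries, a ratio of shares of 0.988 (0.799 to 1.22). In the TOP2A and TOP2B pulldowns of that replica the HSat1B ratios were 1.44 (1.04 to 2.00) and 1.02 (0.723 to 1.43). The low HSat1A was seen in each kind of library, input included. It was not particular to HSat1A: in the same inputs HSat2 had 0.147% of region reads with mitoxantrone, against 0.578% without, and HSat3 had 0.707% against 1.46%. In the TOP2A pulldowns HSat2 had 0.119% against 0.552% and HSat3 had 0.573% against 1.20%, and in the TOP2B pulldowns 0.0881% against 0.562% and 0.474% against 1.40%. In that input pair hsat1A_4_2 had 3 reads against 137, hsat1A_4_1 had 6 against 128 and hsat1A_8_1 had 1 against 63. By contrast hsat1A_21_1 had 4 against 11 and hsat1A_3_2 had 11 against 39. Among HSat1B regions in the same libraries hsat1B_13_2 had 36 reads with mitoxantrone and 62 without, and hsat1B_13_1 had 29 and 50.

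**Figure D4:**
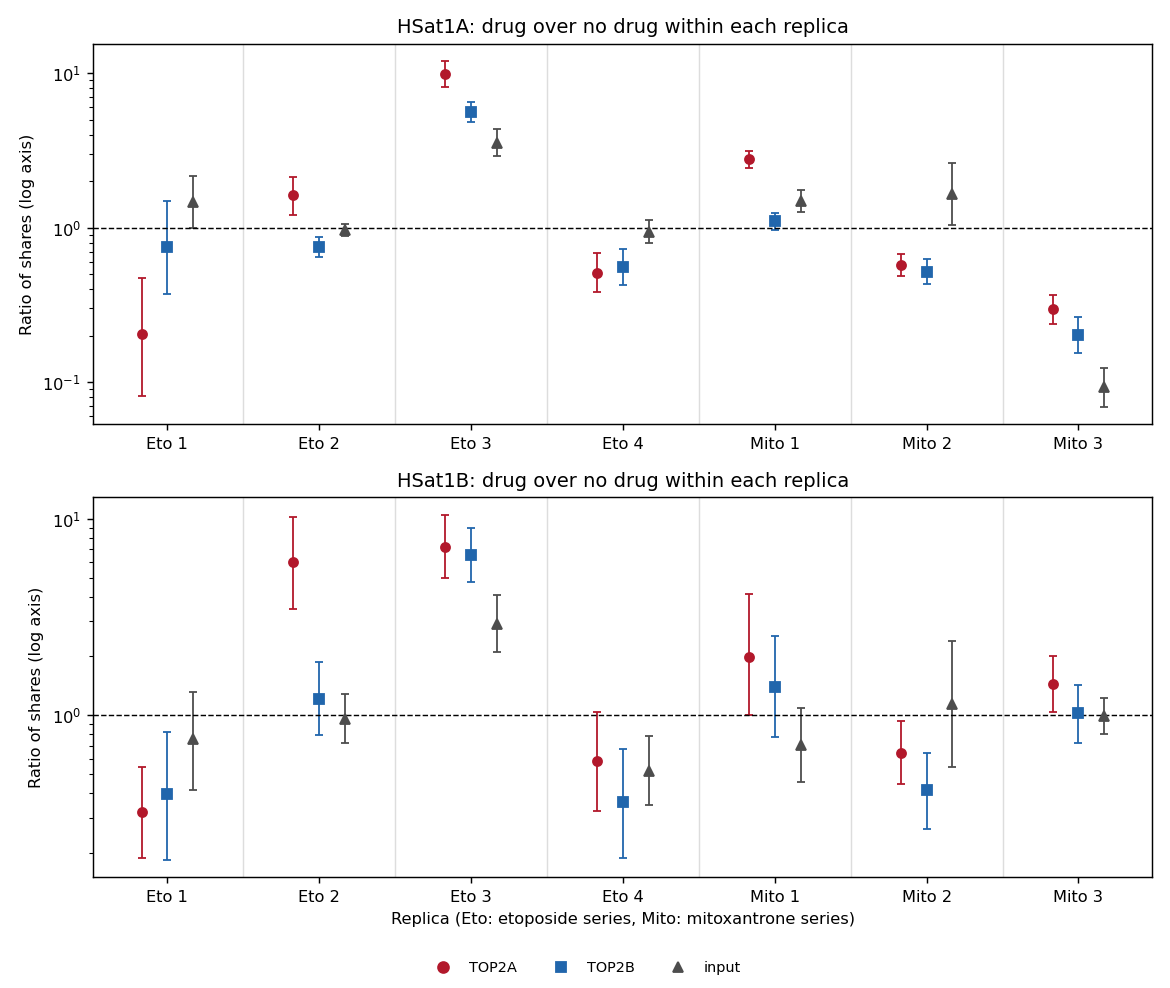
Ratio of the share with drug to the share without, within each of 7 replicas, for TOP2A, TOP2B and input, on log axes, with HSat1A on top and HSat1B below. Bars are 95% exact binomial intervals and the dashed line marks 1. In etoposide replica 3 all 3 kinds of library are above 1 in both families, and in mitoxantrone replica 3 HSat1A lies between 0.0932 and 0.295 where HSat1B lies between 0.988 and 1.44.

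Region by region, no drug comparison passed the test. In edgeR's fit of the etoposide series 0 of 1068 regions were called (0%) in TOP2A, TOP2B and input, with 7, 7 and 0 at an unadjusted p under 0.05, and in DESeq2 0 with 14, 8 and 0. In the mitoxantrone series 0 of 1416 were called (0%) in each, with 5, 3 and 1 at an unadjusted p under 0.05, and in DESeq2 0 with 7, 3 and 1. Of the HSat1A regions 14 of 24 were tested in the etoposide fit and 16 of 24 in the mitoxantrone fit. Of the HSat1B regions 8 of 18 and 5 of 18 were tested. Differences of the drug change between a pulldown and input, and between the drugs, were fitted too, and 0 regions were called in any of them.

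The fitted changes and the replica means can point apart. For etoposide against no drug in TOP2A all 14 tested HSat1A regions had positive fitted changes with a median log2 of 2.02, against -0.05 over all regions tested, while the replica mean of the family sum was 0.19. A region that passes the filter only where it is high had to differ, so the shared sign describes the tested regions alone. For hsat1A_13_1, with 2, 17, 80 and 21 reads under etoposide against 9, 55, 39 and 33 without, the fitted log2 change was 1.90 with all replicas and -0.06 without replica 3. For hsat1A_4_1, with 1 or no read in 3 of the etoposide libraries and 14 in replica 3, it was 1.43 with all replicas and -2.90 without replica 3. Among the tested members the largest fitted change there was in hsat1B_21_3, with 1, 2, 7 and 1 reads under etoposide against 1, 2, 0 and 0 without, a log2 change of 4.14 (edgeR adjusted p = 0.999).

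The tested regions of both families had a higher fitted coefficient of variation than all tested regions together. A region with few reads can pass the filter through shallow libraries where its share is high. The part of this selection in the coefficients was not tested. The median biological coefficient of variation in the etoposide fit was 1.38 for HSat1A and 1.43 for HSat1B, against 0.527 over all 1068 regions. In the mitoxantrone fit it was 1.05 and 1.02, against 0.638 over all 1416. This coefficient comes on top of counting error. At the median mean count of the HSat1B regions in the etoposide fit, 3.88 reads, counting error alone is a coefficient of variation of 0.508. For HSat1A, at 15.3 reads, it is 0.255, and over all regions of that fit, at 33.5 reads, it is 0.173.

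Of the 8 chromosomes, chromosome 4 had the widest range of shares of the HSat1A reads. In the 30 libraries with at least 100 HSat1A reads chromosome 13 held 20.9% to 39.8% of them, chromosome 21 held 8.04% to 18.3% and chromosome 8 held 4.65% to 11.6%. Chromosome 4 ran from 4.81% to 37.2%. Its highest share was in the untreated input of mitoxantrone replica 3. Over the 3 libraries with mitoxantrone in that replica chromosome 4 held 14.98% of HSat1A reads (10.9% to 20.2%), against 33.6% (31.5% to 35.7%) over the 3 without drug. In mitoxantrone replica 1 the same shares were 18.4% and 18.0%, and in replica 2 they were 11.4% and 8.80%. Only 5 libraries had 100 HSat1B reads, and in those chromosome 13 held 29.0% to 64.4%.

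**Figure D5:**
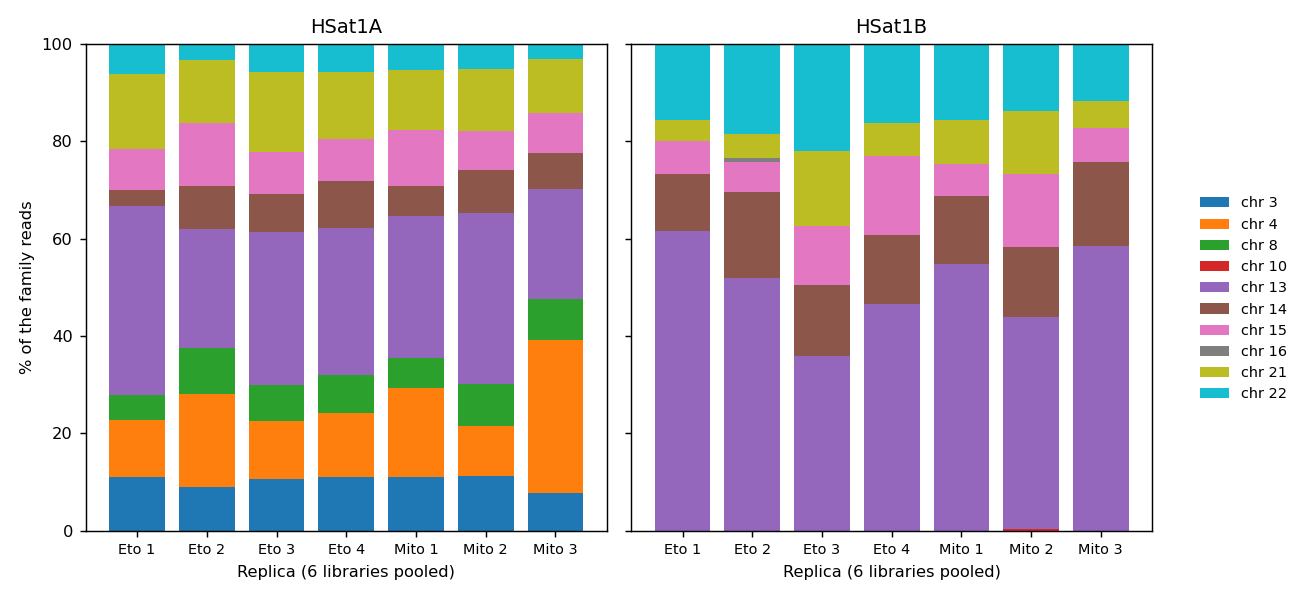
Chromosome composition of the HSat1A reads (left) and HSat1B reads (right) of each replica, 6 libraries pooled, as stacked percentages of the family's reads on a linear axis. Chromosome 13 is the largest part of HSat1B in all 7 replicas. In HSat1A chromosome 4 is largest in mitoxantrone replica 3, where it holds 31.6%, against 10.2% in mitoxantrone replica 2.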

How the data were processed

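The deposited reads had been cleaned with Trimmomatic 0.36, placed on the T2T-CHM13 assembly by BWA 0.7.17 and assigned to regions by HTSeq 2.7.13, per the submitters' processing notes. Neither the mapping quality limit nor the counting unit, single reads or pairs, is stated in the sources used here. The values used are the read counts per named region as deposited by the authors, with no normalisation applied. The 5 tallies of reads given to no region were left out of library sizes and tests. No genome sequence or region coordinates were used.

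Member counts were summed per family and library and divided by all named-region reads. Ratios were formed within a replica, as log2 after adding 0.5 to each sum, and averaged over replicas with their SD. No p was computed for these sums. Single regions were tested across the whole table with edgeR 4.0.16 (quasi-likelihood, TMM factors, filterByExpr with a minimum count of 10, two-sided, Benjamini-Hochberg), by series, or over all libraries for untreated and between-drug comparisons. DESeq2 1.42.0, limma 3.58.1 (voom with quality weights and the replicate block), other size factors, no filter, a replicate block and leaving out each replica were the alternatives. Other denominators, another added count, pooled reads and leaving out the largest region were tried for the sums. Sums without libraries under 100000 region reads were added after seeing the data, and the region tests were not rerun without them. The tests were run on simulated counts with a smaller spread, and more reads per changed region, than most members had. That check therefore does not show how the tests perform on the members.

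Members and lists were chosen with earlier results of these data known. Regions to name were listed by rule. The list holds the 6 HSat1A and 4 HSat1B regions with most reads and the one with most reads per chromosome and family. It also holds any with an adjusted p under 0.05 and the member with the lowest p in each drug comparison. Not every region on that list is described above. The replica numbers pair libraries, since the labels give all 6 libraries of a replica the same replica name. Deviations from group means correlated over 0.1 in 18 of 21 pairs of libraries, each the drug and no-drug library of one kind in one replica. The others were TOP2A of etoposide replica 3 (-0.03) and TOP2B (-0.21) and input (-0.46) of etoposide replica 4. In 17 of 21 pairs the highest correlation was with the same replica number. The exceptions were those pairs and TOP2B of etoposide replica 3. Ratios of drug to no drug in these libraries rest on a pairing that the correlations do not bear out. P-values measure only the spread between these libraries. No 2 libraries held identical counts.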

Additional observations from a re-analysis of the deposited data

Results flagged for a closer look

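Dixon's rule for a sample far from the others of its group was applied to 34 groups of shares or changes, and 4 passed it. For normally distributed, independent groups chance would flag about 1 in 20. The shares are skewed percentages and the groups reuse libraries, so that rate need not hold here. The HSat1B share in the TOP2B pulldown of etoposide replica 3 with etoposide, 0.354%, lay far above the other 3 replicas. In the same library pair the HSat1A log2 change of etoposide against no drug, 2.49, lay far above the other 3. That library had 39003 region reads, against 108441 in its partner without drug. The HSat1A share in the untreated input of etoposide replica 1, 0.00391%, lay far below the other 3 of its series, and this replica has the 38 bp reads. The HSat1A log2 change of untreated TOP2A against input was 5.47 in mitoxantrone replica 2, far above the other 6 replicas. No pair among 14 compared had every replica of one series moving one way and every replica of the other the opposite way.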

How the results depend on the processing

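No family sum moved by more than 1 SD between replicas under any of 406 alternative values. Leaving out a replica cannot move a mean that far, so 154 of these values could not break the rule. The SD was often larger than the mean, and 45 values changed sign, 26 of them when a replica was left out. TOP2A and TOP2B over input under mitoxantrone stayed positive in HSat1A under each alternative run. The count of regions called was 0 in edgeR, in DESeq2, with other size factors, with no filter and without each replicate in turn (0 to 0 in all 22 comparisons). The replicate block changed 1 count: untreated TOP2B against input had 1 region called, which is no member. With voom, quality weights and the replicate block, TOP2A against input under mitoxantrone had 1 region called, hsat1A_22_1, untreated TOP2A against input had 11 and untreated TOP2B against input had 2, with no member among these. The cause of these 4 differences was not tested. Single named regions gave 849 alternative values in the drug comparisons, of which 126 changed sign and none crossed the threshold (lowest adjusted p = 0.657). Depth limits HSat1B, with 13 to 231 reads per library. Leaving out each replicate gave HSat1A means of 1.90 to 2.96 for TOP2A over input under mitoxantrone.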

Other observations

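The difference between the pulldowns and input under mitoxantrone was set against the same difference without drug. For HSat1A the mitoxantrone change in TOP2A minus that in input averaged 0.34 on the log2 scale (SD 1.66), higher in 2 of 3 replicas, and the change in TOP2B minus that in input averaged -0.33 (SD 1.39), higher in 1 of 3. For HSat1B these were 0.38 (SD 1.17) and -0.14 (SD 1.23). With etoposide they were -0.37 (SD 1.90) and -0.36 (SD 0.73) for HSat1A and 0.72 (SD 1.65) and 0.0063 (SD 0.93) for HSat1B. In edgeR 0 regions were called in any of these 4 differences, with 0 to 5 at an unadjusted p under 0.05.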
